A study of Mus musculus with 3 samples.

Results

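The genes described here are 10 members of the Nrf2 pathway, the main transcriptional defence of mammalian cells against oxidants and electrophiles. They were taken by name, with the probe set of the highest mean level where a gene had several, and all 10 were found among 22180 genes measured. They comprise the transcription factor gene Nfe2l2 and its inhibitor gene Keap1, the heme oxygenase gene Hmox1, the cystine importer gene Slc7a11, and 6 further targets, Nqo1, Gclm, Gclc, Txnrd1, Srxn1 and Gsr. The members were selected on the log2 values of these same 3 arrays, for a contrast of Hmox1 and Slc7a11 with the other targets. The differences below are therefore a description.

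Retinae of C57 mice were measured on 3 Affymetrix whole-transcript arrays, 1 per group, each hybridised with RNA pooled from 5 to 6 retinae. All mice received an intravitreal injection. The groups were AP, which served as control and was taken after 2 hr, cavtratin, a cell-permeable peptide carrying the caveolin-1 scaffolding domain, taken after 2 hr, and Cav1-shRNA, a short hairpin RNA named for the caveolin-1 transcript, taken after 2 days. The labels do not spell out AP and give no age, sex or genetic modification. The labels name no array without an injection, no control hairpin and no control at 2 days. The Cav1 hairpin, the injection of any hairpin and the later time therefore cannot be told apart when Cav1-shRNA is compared with either other array. No group has a replicate, no test was possible, and every difference compares 2 arrays.

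Cav1, the gene targeted by the hairpin, had a value of 8.26 in all 3 arrays. The hairpin's target was thus not found lower in the array labelled Cav1-shRNA, and every direction below that involves that array is drawn with this limit. Values were used as log2 expression, and 2 arrays were called 2-fold apart for a gene when they differed by at least 1 on that scale and the higher one reached an expression floor of 6.50, the median probe set level. Exactly equal values between arrays were common. Among genes at or above the floor, 54.5% were tied between cavtratin and AP control, 53.0% between Cav1-shRNA and AP control and 54.7% between Cav1-shRNA and cavtratin. An equal value is thus given as deposited and does not show that a transcript was unchanged. The 13 measured retina markers, among them the rod phosphodiesterase gene Pde6b and the Muller glia gene Rlbp1, were at or above the floor in all 3 arrays, with median differences from AP control of −0.079 in cavtratin and 0 in Cav1-shRNA.

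Nrf2, the protein of Nfe2l2, is held in the cytoplasm by Keap1, which presents it to a Cul3 ubiquitin ligase for degradation. Oxidants and electrophiles modify cysteines of Keap1, newly made Nrf2 then enters the nucleus, pairs with small Maf proteins and binds antioxidant response elements near its targets. Those targets build and recycle glutathione and thioredoxin, import cystine and degrade heme. Hmox1 and Slc7a11 also answer to other factors, Hmox1 to the heme-sensitive repressor Bach1 and to inflammatory signals, and Slc7a11 to Atf4, the effector of the integrated stress response.

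Slc7a11 differed more between the arrays than Srxn1 and Gclm did. The start-site sequences of these 3 targets are shown because they hold different elements of this kind. They are RefSeq sequences of GRCm38.p6 and run from 250 bases before to 50 bases after the annotated start. Capitals mark every match, on either strand, to TGACNNNGC, the antioxidant response element core, to its variant TGAGNNNGC, to the AP-1 site TGACTCA, and to TGATGNAA, a composite element read by Atf4 with C/EBP partners.
Slc7a11, chr3:50443564-50443863, - strand: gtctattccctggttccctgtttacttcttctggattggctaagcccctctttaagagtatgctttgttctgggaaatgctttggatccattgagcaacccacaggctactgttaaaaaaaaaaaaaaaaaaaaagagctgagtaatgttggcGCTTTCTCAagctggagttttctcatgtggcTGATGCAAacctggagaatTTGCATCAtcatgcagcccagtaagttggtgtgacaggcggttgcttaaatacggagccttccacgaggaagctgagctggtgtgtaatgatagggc
Srxn1, chr2:152105274-152105573, + strand: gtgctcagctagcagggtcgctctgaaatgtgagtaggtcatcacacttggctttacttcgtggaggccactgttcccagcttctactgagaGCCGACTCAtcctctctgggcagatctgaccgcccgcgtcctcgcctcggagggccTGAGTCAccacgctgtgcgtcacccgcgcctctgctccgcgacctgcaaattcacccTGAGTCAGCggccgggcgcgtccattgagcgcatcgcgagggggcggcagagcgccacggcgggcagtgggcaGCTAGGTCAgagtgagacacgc
Gclm, chr3:122245307-122245606, + strand: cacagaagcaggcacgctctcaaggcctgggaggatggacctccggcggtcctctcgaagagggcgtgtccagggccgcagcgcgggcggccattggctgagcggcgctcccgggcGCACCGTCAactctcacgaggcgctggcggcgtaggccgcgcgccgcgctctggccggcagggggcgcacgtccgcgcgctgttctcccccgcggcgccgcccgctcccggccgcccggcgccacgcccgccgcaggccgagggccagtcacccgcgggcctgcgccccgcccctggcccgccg
Slc7a11 held a pair of composite elements, TGATGCAA beginning at position −66 and TTGCATCA, its reverse complement, at −47, counted from the start site. It also held the variant match GCTTTCTCA at −97 and no match to the core. Srxn1 held the variant match TGAGTCAGC at −45, which overlaps the AP-1 site TGAGTCA at the same position, a further AP-1 site at −102, the variant match GCCGACTCA at −158 and the core match GCTAGGTCA at position 29 after the start. Gclm held 1 core match, GCACCGTCA, at −134.

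Of 32851 promoter windows of that length, 12.4% held the core, 17.6% the variant, 5.2% the AP-1 site and 3.97% the composite element. The variant was added to the search after the member sequences had been seen. Sequences were at hand for 7 of the 10 members, with 9 start sites, and not for Hmox1, Gclc and Gsr. The elements of Hmox1 could therefore not be set beside the others. Of these 7 members, 4 had a core match in at least 1 window, Nfe2l2 and Txnrd1 beside Srxn1 and Gclm. For Txnrd1 the match was GCTTTGTCA at −92, and for Nfe2l2 it was TGACTCCGC at −240. No match to these letters was found in the windows of Nqo1 and Keap1, which says nothing of the factors themselves.

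The regulators came first. Nfe2l2 had values of 9.21 with AP control, 9.34 with Cav1-shRNA and 9.59 with cavtratin. It was thus highest in cavtratin, 0.38 above AP control on the log2 scale, and 0.13 above AP control in Cav1-shRNA. Keap1 had values of 7.37 with AP control, 7.53 with Cav1-shRNA and 7.39 with cavtratin. It was 0.16 higher in Cav1-shRNA and 0.016 higher in cavtratin than in AP control. A second Keap1 probe set, at 6.43, 6.43 and 6.58 in the same order of arrays, was instead highest in cavtratin. The probe sets of Keap1 thus disagree on which array was highest, and with their mean the difference between Cav1-shRNA and cavtratin, 0.14 as chosen, was −0.0043.

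To give these sizes a scale, probe sets were compared in pairs within each of 271 genes with at least a pair at or above the floor. In 95% of them the differences given by both probe sets lay within 0.34 of each other for cavtratin against AP control, within 0.30 for Cav1-shRNA against AP control and within 0.31 for Cav1-shRNA against cavtratin. This gap holds probe and isoform spread and no spread between animals or pools. For cavtratin against AP control 3 members lay beyond it, Hmox1, Gsr and Nfe2l2. For Cav1-shRNA against AP control 2 did, Hmox1 and Slc7a11, and for Cav1-shRNA against cavtratin 3 did, Hmox1, Slc7a11 and Gsr. All differences of Keap1, Gclm, Gclc, Txnrd1, Srxn1 and Nqo1 were smaller than the gap.

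**Figure D1:**
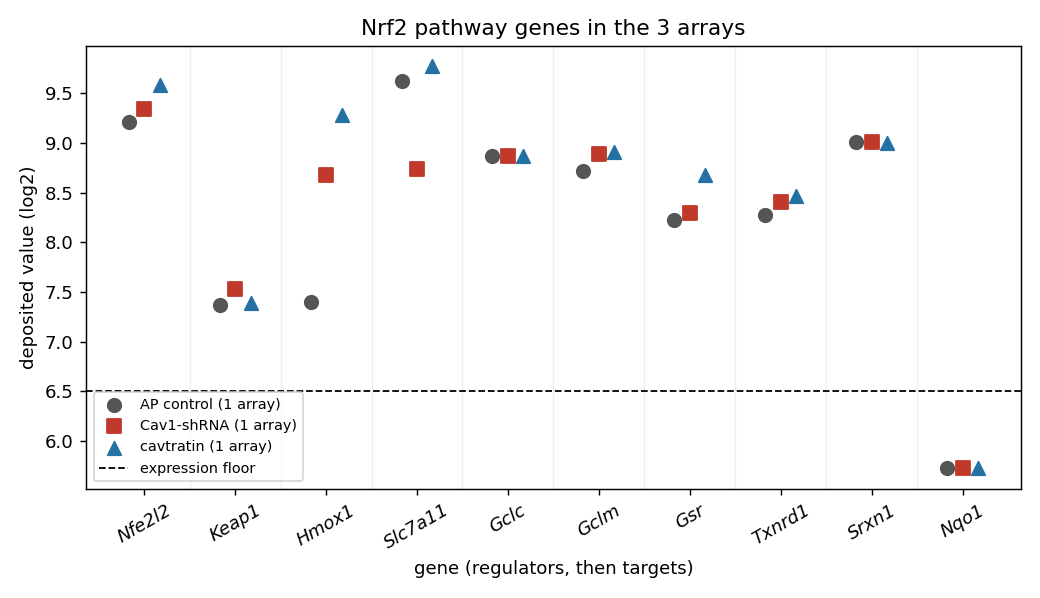
Deposited log2 values of the 10 genes, 1 point per array, with the expression floor of 6.50 as a dashed line. Hmox1 is lowest with AP control at 7.39, between with Cav1-shRNA at 8.67 and highest with cavtratin at 9.28, Slc7a11 is lowest in Cav1-shRNA at 8.73, and Nqo1 is below the floor in all 3.

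Hmox1 encodes heme oxygenase 1, which cleaves heme to biliverdin, carbon monoxide and iron. It was measured at 7.39 with AP control, 8.67 with Cav1-shRNA and 9.28 with cavtratin. AP control was lowest, cavtratin highest, and all 3 arrays lay above the floor. Hmox1 was 1.88 higher in cavtratin than in AP control on the log2 scale, or 3.69-fold, and 1.28 higher in the array labelled Cav1-shRNA, or 2.43-fold. Both comparisons use the same AP control array. Cav1-shRNA minus cavtratin was −0.60. These were the 65th highest of 11477 differences for cavtratin and the 19th highest of 11433 for Cav1-shRNA. In bulk retina more RNA per cell and more cells that carry the transcript cannot be told apart, here or for any gene below.

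Hmox1 was the 1 member of 10 at least 2-fold higher than AP control in cavtratin, where 1.36% of all genes at or above the floor were, and also the 1 in Cav1-shRNA, where 0.341% were. No member was at least 2-fold lower than AP control in either array, against backgrounds of 0.0958% and 0.122%. In both directions together 1.46% of genes were at least 2-fold apart in the cavtratin comparison and 0.464% in the Cav1-shRNA one. Nothing is read from these counts, since the members were chosen with the contrasts in view.

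Slc7a11 encodes xCT, the transporter subunit that brings cystine into the cell in exchange for glutamate and so feeds glutathione synthesis. Its values were 9.63 with AP control, 8.73 with Cav1-shRNA and 9.77 with cavtratin. Both arrays taken after 2 hr were close, 0.15 apart, and the array taken after 2 days was the low one. Cav1-shRNA minus AP control was −0.89 on the log2 scale, a ratio of 0.539, and Cav1-shRNA minus cavtratin was −1.04, a ratio of 0.486. These were the 22nd lowest of 11433 and the 87th lowest of 11472 differences. Slc7a11 was the 1 member at least 2-fold lower in Cav1-shRNA than in cavtratin, where 0.785% of genes were, and 0 members were at least 2-fold higher, where 0.0349% were, so that 1 of 10 was at least 2-fold apart against 0.819% of genes. It stood just past the threshold, and after centring of each array on its median the difference was −0.99, short of it.

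A second Slc7a11 probe set, below the floor at 5.15 with AP control, 5.04 with Cav1-shRNA and 5.15 with cavtratin, was also lowest in Cav1-shRNA, with differences of −0.11 from each other array. It gave the same direction at a far smaller size. With the mean of both probe sets, Cav1-shRNA differed by −0.50 from AP control and by −0.58 from cavtratin.

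**Figure D2:**
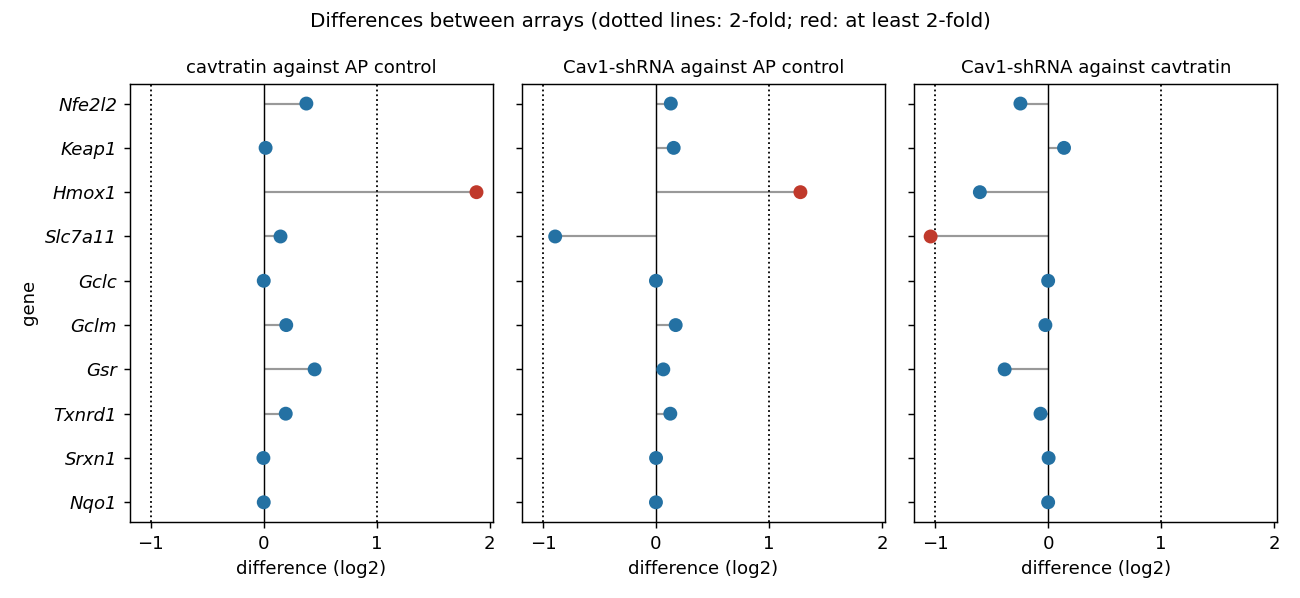
Differences of log2 values for the 10 genes in the 3 comparisons, with dotted lines at 2-fold and red points at or beyond it. Hmox1 is at 1.88 and 1.28 against AP control, and Slc7a11 is at −0.89 and −1.04 where Cav1-shRNA is compared with AP control and with cavtratin.

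The other 6 targets lay closer together. Their median difference was 0.097 for cavtratin against AP control, with a range from −0.003 to 0.45. It was 0.033 for Cav1-shRNA against AP control, from 0 to 0.17 and with every value 0.058 higher after centring, and −0.012 for Cav1-shRNA against cavtratin, from −0.39 to 0.0041. Over all genes at or above the floor the median was 0 in each comparison. Hmox1 lay 1.79 above the median of these 6 in cavtratin against AP control and 1.25 above it in Cav1-shRNA against AP control. Slc7a11 lay 0.051 above it in cavtratin, a value that turns to −0.023 with the mean of its probe sets, and its distance from that median was −0.92 in Cav1-shRNA, or −0.53 with that mean. Hmox1 and Slc7a11 thus stood on opposite sides of the other targets in the array labelled Cav1-shRNA, 2.17 apart, while in cavtratin they were 1.73 apart with Slc7a11 close to the others.

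Glutathione synthesis begins with glutamate-cysteine ligase, whose catalytic subunit is made by Gclc and whose modifier subunit by Gclm. Gclc had the same value, 8.87, in all 3 arrays. Gclm was at 8.71 with AP control, 8.89 with Cav1-shRNA and 8.91 with cavtratin, so that both other arrays stood above AP control, by 0.17 and 0.20. Cav1-shRNA minus cavtratin was −0.024 and became 0.027 after centring. The Gclm differences were smaller than the gap between probe sets, and an exact tie does not show that Gclc was unchanged. A different pattern of the subunits therefore cannot be read from these values.

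Gsr encodes glutathione reductase, which returns oxidised glutathione to its reduced form. Its values were 8.23 with AP control, 8.29 with Cav1-shRNA and 8.68 with cavtratin. Cavtratin stood apart from both others, 0.45 above AP control, with Cav1-shRNA 0.065 above AP control. Of the 6 targets Gsr had the largest difference in cavtratin, and 2.77% of genes that reached the floor had a higher one.

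Txnrd1 encodes cytosolic thioredoxin reductase, a selenoenzyme that keeps thioredoxin reduced. Its values were 8.28 with AP control, 8.40 with Cav1-shRNA and 8.47 with cavtratin. Both other arrays lay above AP control, by 0.13 and 0.19. Srxn1 encodes sulfiredoxin, which repairs overoxidised peroxiredoxins. It was at 9.01 in AP control and 9.01 in Cav1-shRNA, and its 3 differences were at most 0.0041 in size, with the sign of −0.003 for cavtratin minus AP control turned by centring. Nqo1 encodes a quinone reductase that is a classic readout of Nrf2. It had the same value, 5.72, in all 3 arrays and lay below the floor in each, so these arrays give little on it.

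Over all 10 members, 7 were above AP control in cavtratin, 1 was below it and 2 were equal, with a median difference of 0.17. In Cav1-shRNA, against the same AP control array, 7 were above, 1 was below and 2 were equal, with a median of 0.096. Among all genes at or above the floor, 19.6% were above and 25.9% below AP control in cavtratin, and 25.2% were above and 21.9% below in Cav1-shRNA. The 1 member below AP control was Srxn1 in cavtratin and Slc7a11 in Cav1-shRNA. Of the 10 members, 9 reached the floor, all but Nqo1.

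Further genes known as Nrf2 targets were taken from a list, of which 24 were measured. In cavtratin 17 of the 24 were above AP control and 1 was below, with a median of 0.076, and none was at least 2-fold apart. In Cav1-shRNA 19 were above and 2 below, with a median of 0.092, again with none at least 2-fold apart. Centring, which adds 0.058 to every gene of that comparison, gave a median of 0.15. Over all 22180 genes, with no floor, the medians were 0, and 17.5% and 22.4% were above AP control in these arrays. Fth1, the ferritin heavy chain that stores the iron freed from heme, was at 11.46 with AP control, 11.88 with Cav1-shRNA and 12.28 with cavtratin. Its order of arrays was that of Hmox1. Osgin1, an oxidative stress-induced growth inhibitor, had the same order, at 6.73, 6.99 and 7.37. Txn1, thioredoxin, was at 9.74, 9.77 and 10.07, close in AP control and Cav1-shRNA and highest in cavtratin. Abcc1, an exporter of glutathione conjugates, was 0.28 higher in cavtratin than in AP control. In Cav1-shRNA the differences named beside Fth1 and Osgin1 were those of Taldo1, a pentose phosphate enzyme, at 0.28 and Gstm1, a glutathione transferase, at 0.23.

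Partners and regulators of Nrf2 differed little. Of 14 measured, 10 were equal between cavtratin and AP control and 7 between Cav1-shRNA and AP control, both medians were 0, and none was at least 2-fold apart. Bach1, the heme-sensitive repressor of Hmox1, was at 8.24 in AP control and 8.23 in both other arrays. Mafg, a small Maf partner, was at 7.42 in Cav1-shRNA and at 7.50 in both other arrays. Dpp3, a Keap1-binding peptidase, was 0.10 higher in Cav1-shRNA, the largest difference in that list.

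Among the pathway lists, that of heme and iron handling alone held genes at least 2-fold apart from AP control. The 23 measured had medians of 0.016 in cavtratin and 0 in Cav1-shRNA against AP control, and means of 0.23 and 0.097. In both comparisons 19 of the 23 reached the floor. At least 2-fold higher than AP control were 2 in cavtratin, against 1.36% of all genes at or above the floor, and 2 in Cav1-shRNA, against 0.341%. They were Hp, haptoglobin, which binds free hemoglobin, and Slc11a1, a metal transporter of phagocyte vesicles, in both arrays. Hp was at 6.32 with AP control, 7.40 with Cav1-shRNA and 8.42 with cavtratin. Slc11a1 was at 6.43, 7.62 and 8.50 in the same order. Both therefore had AP control below the floor, which can make their differences too small, and both had the order of Hmox1. Steap4, a metalloreductase, went the other way, at 8.65 with AP control, 7.71 with Cav1-shRNA and 8.04 with cavtratin. Hmox2, the constitutive heme oxygenase, and Blvra, a biliverdin reductase, both named after their values were seen, were at 9.06 and at 7.02 in each array.

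Genes of cystine, glutamate and glutathione metabolism had medians of 0.045 in cavtratin and 0 in Cav1-shRNA against AP control over 19 measured, with none at least 2-fold apart. Glrx, glutaredoxin, was at 7.30 with AP control, 7.34 with Cav1-shRNA and 7.82 with cavtratin, high in cavtratin alone. Gpx3, the secreted glutathione peroxidase, was 0.19 higher in cavtratin than in AP control, and Ahcy, which makes homocysteine, differed by −0.12. Slc3a2, the heavy chain that carries xCT to the membrane, was singled out after its values were seen. It lay at 10.76 with AP control, 10.80 with Cav1-shRNA and 10.79 with cavtratin, so its values in all 3 arrays lay within 0.04 of each other where those of Slc7a11 differed by up to 1.04.

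Thioredoxin and superoxide defence genes had medians of 0 in both comparisons with AP control over 17 measured, with none at least 2-fold apart. Txnip, which binds and inhibits thioredoxin, was at 7.61 with AP control, 8.16 with Cav1-shRNA and 8.44 with cavtratin. Msrb1, a methionine sulfoxide reductase, was 0.59 higher in cavtratin and 0.24 higher in Cav1-shRNA than in AP control. Sod3, extracellular superoxide dismutase, differed from AP control by 0.42 in cavtratin and by −0.12 in Cav1-shRNA.

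The Atf4 branch of the integrated stress response was set beside Slc7a11, whose window holds the composite elements shown above. Of 24 genes measured, 11 were above AP control in Cav1-shRNA, 0 were below and 13 were equal. In cavtratin 11 were above and 2 below. Both medians were 0 and none was at least 2-fold apart. Over all genes, with no floor, 22.4% were above and 18.5% below AP control in Cav1-shRNA, and 17.5% and 20.9% in cavtratin. The part of this branch in the Slc7a11 values was not tested. The transcript of Atf4 itself, named after its values were seen, was at 8.51 in all 3 arrays, and its protein was not measured. Nupr1, a stress-induced chromatin protein, had the largest difference of Cav1-shRNA from AP control, 0.50, with values of 8.51 with AP control, 9.01 with Cav1-shRNA and 8.69 with cavtratin. Atf3, a stress-induced repressor, had the largest in cavtratin, 0.41, at 8.49 with AP control, 8.74 with Cav1-shRNA and 8.91 with cavtratin.

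**Figure D3:**
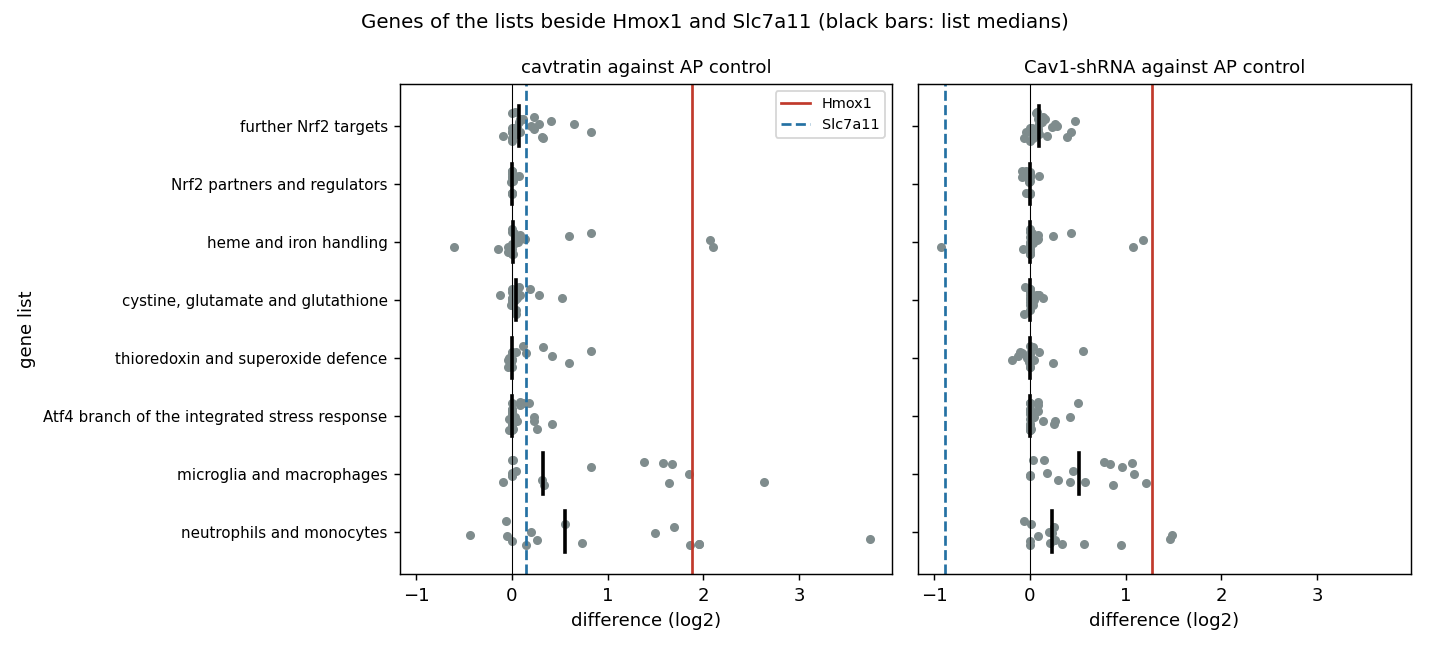
Differences of log2 values from AP control in cavtratin (left) and Cav1-shRNA (right) for each measured gene of 8 lists, with list medians as black bars and vertical jitter for legibility. Solid red lines mark Hmox1 at 1.88 and 1.28 and dashed blue lines Slc7a11 at 0.15 and −0.89; further Nrf2 targets have medians of 0.076 and 0.092, and markers of microglia and macrophages 0.32 and 0.52.

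Myeloid cells can strongly induce both Hmox1 and Slc7a11. Of 16 measured markers of microglia and macrophages, 12 were above AP control in cavtratin and 15 in Cav1-shRNA. Their median differences were 0.32 and 0.52 and their mean differences 0.76 and 0.56. Median and mean thus put cavtratin and Cav1-shRNA in opposite orders. In both comparisons 14 of the 16 reached the floor. At least 2-fold higher were 6 of the 16 in cavtratin, where 1.36% of all genes at or above the floor were, and 3 in Cav1-shRNA, where 0.341% were. The largest differences in cavtratin were those of Cd14, a lipopolysaccharide co-receptor, at 2.64, Fcer1g at 1.85 and Itgam, an integrin of myeloid cells, at 1.68, and the largest in Cav1-shRNA was that of Mpeg1 at 1.21. The mean log2 level of that list was 7.27 with AP control, 7.82 with Cav1-shRNA and 8.03 with cavtratin. Named after their values were seen, C1qa and C1qb, complement subunits made by microglia, were instead highest in Cav1-shRNA, at 7.75 and 9.05, P2ry12, a receptor of resident microglia, had the same value of 6.87 in each array, and Aif1 and Tmem119 were below the floor in all 3. Of 15 markers of neutrophils and monocytes, 11 and 12 were above AP control in cavtratin and Cav1-shRNA, and 3 and 1 were below it. In these comparisons 8 and 5 of the 15 reached the floor. At least 2-fold higher were 6 and 2, with S100a8, a calcium-binding protein of neutrophils, at 3.74 and 1.46. S100a8 was below the floor in AP control, at 5.98. S100a9, Retnlg and Mmp8, also among the 6, reached the floor in cavtratin alone, the array where they were high. These counts thus rest in part on low signal. Ly6c2 had another order, with differences of −0.435 in cavtratin and 1.49 in Cav1-shRNA. It was at 6.59 with AP control, 8.08 with Cav1-shRNA and, below the floor, 6.16 with cavtratin. The list had mean levels of 5.57 with AP control, 5.97 with Cav1-shRNA and 6.51 with cavtratin, and 7 of the 15 were below the floor in all 3 arrays, among them Ly6g, Mpo and Elane, also named after their values were seen. Their part in the Hmox1 difference was not tested.

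Lens markers had mean levels of 6.56 with AP control, 6.47 with Cav1-shRNA and 7.60 with cavtratin. This mean was high in cavtratin alone, as Gsr and Glrx were. Of 14 lens markers, 11 were above AP control in cavtratin, 1 was below and 2 were equal, with a median of 0.54. The largest differences were those of the crystallin genes Cryba1 at 3.08, Cryaa at 2.83 and Crygs at 2.77. Named after their values were seen, Mip was the 1 below, at −0.059, and Lim2 and Gja3, below the floor in all arrays, were equal. Both myeloid lists above also had their highest mean level in cavtratin. The part of lens or myeloid cells in the Gsr and Glrx differences was not tested. Muller glia markers were at 9.91 in AP control, with mean differences from it of 0.084 in Cav1-shRNA and 0.0015 in cavtratin. For vascular endothelium the median differences from AP control were 0.22 in Cav1-shRNA and 0.071 in cavtratin over 10 markers, for retinal pigment epithelium they were 0 and 0.051 over 10, and for astrocytes 0 and 0 over 6. Of the 6 astrocyte markers 3 were below the floor in all arrays, and the 3 others had medians of 0.27 in Cav1-shRNA and 0.33 in cavtratin. Gfap, the glial intermediate filament gene, was at 0.36 and 0.37 and Aldh1l1, a folate enzyme, at 0.27 and 0.33. Aldoc, the third of them, was at 0 and −0.077. The astrocyte markers above the floor thus did not all go the same way. Their part in the Hmox1 difference was not tested either. Of the red blood cell list 1 marker was measured, Slc4a1, outside the naming rule and below the floor at 5.58, 5.65 and 5.58.

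Set directly against cavtratin, with no use of the AP control array, Cav1-shRNA had a median difference of 0 in the further Nrf2 targets, with 10 above and 8 below, and of 0 in the heme and iron, the cystine and glutathione, the thioredoxin and the Atf4 lists. Of those 5 lists the heme and iron list held the 1 gene at least 2-fold apart, Hp at −1.02. Fth1 was at −0.40, Osgin1 at −0.38 and Txn1 at −0.29, while Gstp1, a glutathione transferase, was at 0.27. Nrf2 partners had a median of −0.0062, which turned to 0.045 after centring. Markers of microglia and macrophages had a median at 0 with a mean at −0.21, and those of neutrophils and monocytes and of lens had medians of −0.53 and −0.66. These medians take in markers below the floor in all arrays, 7 of 15 and 5 of 14. Over the members that reached the floor in the higher of both arrays, 8 and 9, they were −1.33 and −1.35, a choice that itself depends on the differences. The part of these cells in the lower Hmox1 and Slc7a11 values of Cav1-shRNA was not tested.

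Genes with values most like those of Hmox1 and Slc7a11 were sought among 11510 genes that reached the floor in at least 1 array, by the Euclidean distance over the 3 arrays of values taken relative to each gene's own mean. With 3 arrays this likeness rests on 3 points and is a description. Nearest to Hmox1 were F13a1, coagulation factor XIII A, at a distance of 0.14, Ikbke, an IkB kinase family member, at 0.14, Fcer1g, the common Fc receptor gamma chain, at 0.15, Cyp4f18, a cytochrome P450, at 0.18 and Mpeg1, a macrophage pore-forming protein, at 0.18. Fcer1g was at 8.81 with AP control, 9.90 with Cav1-shRNA and 10.67 with cavtratin. Fcer1g and Mpeg1 also belong to the list of microglia and macrophage markers. F13a1, Ikbke and Cyp4f18 were below the floor in AP control, at 5.99, 6.15 and 6.27, so their distances rest in part on low signal.

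Nearest to Slc7a11 were Tlr2, a receptor for bacterial lipoproteins, at a distance of 0.19, Fas, a death receptor, at 0.24, Trim30d, a tripartite motif gene, at 0.24, Rsad2, the antiviral protein viperin, at 0.26 and Isg20, an interferon-induced exonuclease, at 0.30. Tlr2 was at 7.39 with AP control, 6.65 with Cav1-shRNA and 7.43 with cavtratin. Rsad2 was at 8.37, 7.36 and 8.76 in the same order. All 5 were lowest in the array labelled Cav1-shRNA, which follows from how they were chosen. Fas, at 6.43, and Trim30d, at 6.11, were below the floor in that array.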

How the data were processed

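Pooled retinal RNA was measured on 3 arrays, 1 per group, grouped by sample title. The values deposited by the authors were taken as log2 expression, 1 per probe set and array, a base inferred from their range. How they were summarised and normalized is not given in the sources used here. Of 41345 probe sets, the platform annotation, which can be old, gave 1 symbol to 23521, several to 1814 and none to 16010. Of the 23521, 23328 matched RefSeq by Entrez identifier, with 0 symbols to update. Per gene the probe set with the highest mean was used, which left 22180 genes. Named were all members, up to 4 genes per list and comparison with the largest difference in size at or above the floor, and the 5 genes nearest to Hmox1 and to Slc7a11; others are marked where they appear. Values were equal when within 1e-09. The members and the 15 lists were chosen with earlier results of these data known. Counting was tested on simulated data. Alternatives were centring, quantile normalization, a loess trend of span 0.3, the mean of all probe sets, other thresholds and floors, and means for medians. The number of arrays limits precision. Python 3.11.15, numpy 2.4.6, pandas 2.3.3, scipy 1.17.1 and statsmodels 0.14.6 were used.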

Additional observations from a re-analysis of the deposited data

How the results depend on the processing

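Differences of the 10 members were recomputed under centring, quantile normalization, loess and the mean of all probe sets. Centring adds the same 0.0067, 0.058 or 0.051 to every gene of a comparison, and only Slc7a11 and Keap1 had more than 1 probe set. Most recomputed values could therefore move little, and their count is no measure of robustness. Of 120 recomputed values, 117 moved by less than the spread between a gene's probe sets, an SD of 0.118, 0.0892 and 0.113 in the 3 comparisons. The mean of all probe sets moved the other 3, giving −0.50 and −0.58 for Slc7a11 in Cav1-shRNA against AP control and against cavtratin, and −0.0043 for Keap1 in the latter. Against the median of the other targets Slc7a11 was then at −0.53 and −0.56. Hmox1 ranged from 1.88 to 1.89 in cavtratin and from 1.28 to 1.34 in Cav1-shRNA. For Cav1-shRNA against cavtratin, the members at least 2-fold lower became 0 after centring, 0 with the mean of all probe sets, 2 at 1.5-fold and 0 at 3-fold. For Cav1-shRNA against AP control, 1 member was lower at 1.5-fold and 0 were higher at 3-fold. Over all genes, higher and lower counts for cavtratin against AP control were 156 and 11, with 251 and 27 at 1.5-fold, 86 and 5 at 3-fold, and 81 and 5 with the floor at the 75th percentile. For Cav1-shRNA against AP control they were 39 and 14, with 103 and 42, 9 and 6, and 16 and 5 under those settings. For Cav1-shRNA against cavtratin they were 4 and 90, with 11 and 175, 1 and 26, and 2 and 54. These changes in gene counts follow from the thresholds and floors themselves, and the loss under centring from the 0.051 that it adds to every gene of that comparison. Of 267 recomputed list medians, 22 moved by more than that spread and 4 changed sign. No paired analysis was possible because each group has 1 array, and leaving out an array would leave its group empty. Low signal limits, among others, Nqo1, the second Slc7a11 probe set, and Hp, Slc11a1, F13a1, Ikbke and Cyp4f18 in AP control.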
